A study of Mus musculus with 36 samples.

Results

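The core of the circadian clock was examined in macrophages through its 8 best known genes, the activators Arntl (which encodes BMAL1), Clock and Npas2 and the repressors Per1, Per2, Per3, Cry1 and Cry2. They were taken by gene name from the gene count table, 8 of its 54532 genes, and each was read in all 36 libraries. The cells were bone marrow-derived macrophages (BMDMs) of female C57BL/6 mice aged 13 to 17 weeks, grown for 7 days with MCSF, the growth factor that drives marrow cells to become macrophages, and 20% FBS. WT cells came from Bmal1 flox/flox littermates without Cre (n = 3 replicates), so that the floxed allele is shared by both genotypes. KO cells came from LysM-Cre;Bmal1 flox/flox mice (n = 6 replicates), in which the myeloid LysM promoter drives the Cre recombinase, so the deletion happens in the myeloid lineage and need not reach every cell. Each replicate was treated for 6 h with DMSO vehicle, with 100 µM CCM, a small molecule that binds the PASB domain of BMAL1, with 100 nM LPS, the bacterial cell wall component that activates macrophages, or with LPS and CCM together. The comparisons ask how LPS, CCM and the loss of Bmal1 bear on the clock genes. Each group stands for 1 time after treatment, so no rhythm can be read from these libraries.

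In the clock, BMAL1 pairs with CLOCK, or with its close relative NPAS2, and the pair binds E-box sequences and switches on the Per and Cry genes. The PER and CRY proteins then gather, enter the nucleus and shut the pair down, which closes a loop that takes about a day. A further loop runs through REV-ERB and ROR receptors, which repress and activate Arntl, and the D-box factors DBP, TEF and NFIL3 act on Per genes. In macrophages this clock is known to gate the inflammatory response to bacterial products.

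The activator genes lie apart from each other, as do the repressor genes. On the mm10 build Arntl (ENSMUSG00000055116) lies on chromosome 7 from 113207465 to 113314126, Clock (ENSMUSG00000029238) on chromosome 5 from 76209868 to 76304792 and Npas2 (ENSMUSG00000026077) on chromosome 1 from 39193731 to 39363236. Per1 (ENSMUSG00000020893) lies on chromosome 11 from 69095217 to 69109960, Per2 (ENSMUSG00000055866) on chromosome 1 from 91415982 to 91459324 and Per3 (ENSMUSG00000028957) on chromosome 4 from 151003652 to 151044665. Cry1 (ENSMUSG00000020038) lies on chromosome 10 from 85131700 to 85185064 and Cry2 (ENSMUSG00000068742) on chromosome 2 from 92403646 to 92434043. No other annotated gene overlaps Per1, Per2 or Cry1. The interval of Arntl overlaps the antisense gene Gm45355, that of Cry2 overlaps D930015M05Rik on the other strand, and that of Per3 overlaps Camta1. Clock overlaps Ube2n-ps1 and Gm43658, and Npas2 overlaps Gm20428 and Gm3617. How strands were treated in the counting is not given in the sources used here, so part of the counts of these 5 genes could belong to the overlapping gene.

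Promoters that hold a match to a clock motif are shown for Per1, Per3, Cry1, Cry2 and Arntl, since E-boxes and D-boxes are the sequences through which the clock acts on its own genes. They are RefSeq promoters on GRCm38.p6, from 250 bases before the start of transcription to 50 after it, written in the direction of the gene, and the capitals mark every match to the motifs searched. Those were the E-box CACGTG, its variant CACGTT (called E-prime-box), the D-box TTATGNAA, the AGGTCA core of the ROR and REV-ERB site, the CRE TGACGTCA and the NF-kB motif, on both strands. RefSeq promoters were matched for 7 of the 8 genes, 11 promoters in all, and Per2 was the gene with none. The Npas2 promoter, the second Per1 promoter and the other Arntl promoter hold 0 matches and are not printed. Of the 3 Clock promoters, also not printed, 1 holds an AGGTCA core and 1 the NF-kB motif.
Per1 promoter, chr11:69098699-69098998, plus strand: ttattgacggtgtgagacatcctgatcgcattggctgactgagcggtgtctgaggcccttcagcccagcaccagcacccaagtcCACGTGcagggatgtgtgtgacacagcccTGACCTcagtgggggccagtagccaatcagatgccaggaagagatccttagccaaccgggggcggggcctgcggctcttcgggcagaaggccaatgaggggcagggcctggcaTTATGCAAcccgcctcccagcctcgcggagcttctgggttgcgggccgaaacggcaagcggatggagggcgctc
Per3 promoter, chr4:151044616-151044915, minus strand: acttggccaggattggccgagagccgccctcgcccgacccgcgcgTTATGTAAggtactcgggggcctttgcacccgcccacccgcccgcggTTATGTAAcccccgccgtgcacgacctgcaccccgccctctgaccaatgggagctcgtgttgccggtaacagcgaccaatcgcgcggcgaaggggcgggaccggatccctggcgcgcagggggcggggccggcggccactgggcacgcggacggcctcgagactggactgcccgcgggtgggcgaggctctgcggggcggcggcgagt
Cry1 promoter, chr10:85185005-85185304, minus strand: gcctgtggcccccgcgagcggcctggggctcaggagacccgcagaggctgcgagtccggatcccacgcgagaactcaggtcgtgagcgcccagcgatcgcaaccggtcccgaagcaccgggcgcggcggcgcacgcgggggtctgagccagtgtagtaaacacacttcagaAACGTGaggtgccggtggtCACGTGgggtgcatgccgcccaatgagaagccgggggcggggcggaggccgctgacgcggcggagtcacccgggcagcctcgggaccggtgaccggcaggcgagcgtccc
Cry2 promoter, chr2:92434020-92434319, minus strand: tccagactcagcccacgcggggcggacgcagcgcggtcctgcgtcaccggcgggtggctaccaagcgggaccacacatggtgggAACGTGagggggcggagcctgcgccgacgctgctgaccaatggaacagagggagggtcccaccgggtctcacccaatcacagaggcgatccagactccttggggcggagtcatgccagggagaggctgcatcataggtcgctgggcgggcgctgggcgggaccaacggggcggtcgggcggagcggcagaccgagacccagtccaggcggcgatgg
Arntl promoter, chr7:113207261-113207560, plus strand: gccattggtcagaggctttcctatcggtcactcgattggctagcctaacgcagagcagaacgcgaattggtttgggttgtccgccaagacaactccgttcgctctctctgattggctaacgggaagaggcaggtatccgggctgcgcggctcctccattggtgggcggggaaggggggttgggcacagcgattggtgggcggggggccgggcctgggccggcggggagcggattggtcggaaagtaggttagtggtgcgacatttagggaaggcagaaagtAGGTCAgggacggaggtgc
This Per1 promoter holds an E-box from -166 to -161, an AGGTCA core on the minus strand from -137 to -132 and a D-box from -24 to -17, counted from the start of transcription. The Per3 promoter holds 2 D-boxes, from -205 to -198 and from -158 to -151. In the Cry1 promoter an E-prime-box from -79 to -74 and an E-box from -60 to -55 stand close together, and the Cry2 promoter holds an E-prime-box from -166 to -161. This Arntl promoter holds an AGGTCA core from 32 to 37 bases past the start. Of all 32851 mouse promoters of this length, 7.15% hold the E-box, 4.68% the E-prime-box, 3.38% the D-box, 16.3% the AGGTCA core, 1.79% the CRE and 4.51% the NF-kB motif. None of the 5 promoters shown holds the CRE or the NF-kB motif. These matches describe letters and are not measured binding sites.

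Libraries held 13469262 to 28288923 read pairs on genes, with a median of 19951421, and levels are given as CPM, a gene's read pairs relative to the TMM-adjusted total of its library. All 8 macrophage markers examined, among them Adgre1, Csf1r and Lyz2, were above 1 CPM in at least 1 library, and their summed level was 11500 to 20100 CPM. The 6 neutrophil markers summed to 258 to 975 CPM, the 4 fibroblast or stroma markers to 271 to 1450, the 5 B cell markers to 21.9 to 252 and the 5 T cell markers to 5.75 to 33.2. Of the neutrophil markers, S100a8 and S100a9 had the highest medians (167 and 210 CPM), and Ly6g was at most 0.58 CPM in any library. The libraries of 2 KO replicates stand apart. The 4 libraries labelled KO replicate 6 correlated least with the other libraries of their groups (median r of 0.899 to 0.932 across genes, against at least 0.966 for any other replicate) and had the highest neutrophil sums, 891 to 975 CPM. The 4 libraries with the label KO replicate 2 held 11100 to 14700 CPM of Lyz2, the gene at which LysM-Cre is inserted, within the WT range of 10400 to 15100, whereas the other KO libraries had 5920 to 10200. The genotype values over all treatments and the LPS values of Cry1 in KO are given with and without each of them. In libraries made from whole cultures, fewer cells of a type and less RNA per cell cannot be told apart.

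**Figure D1:**
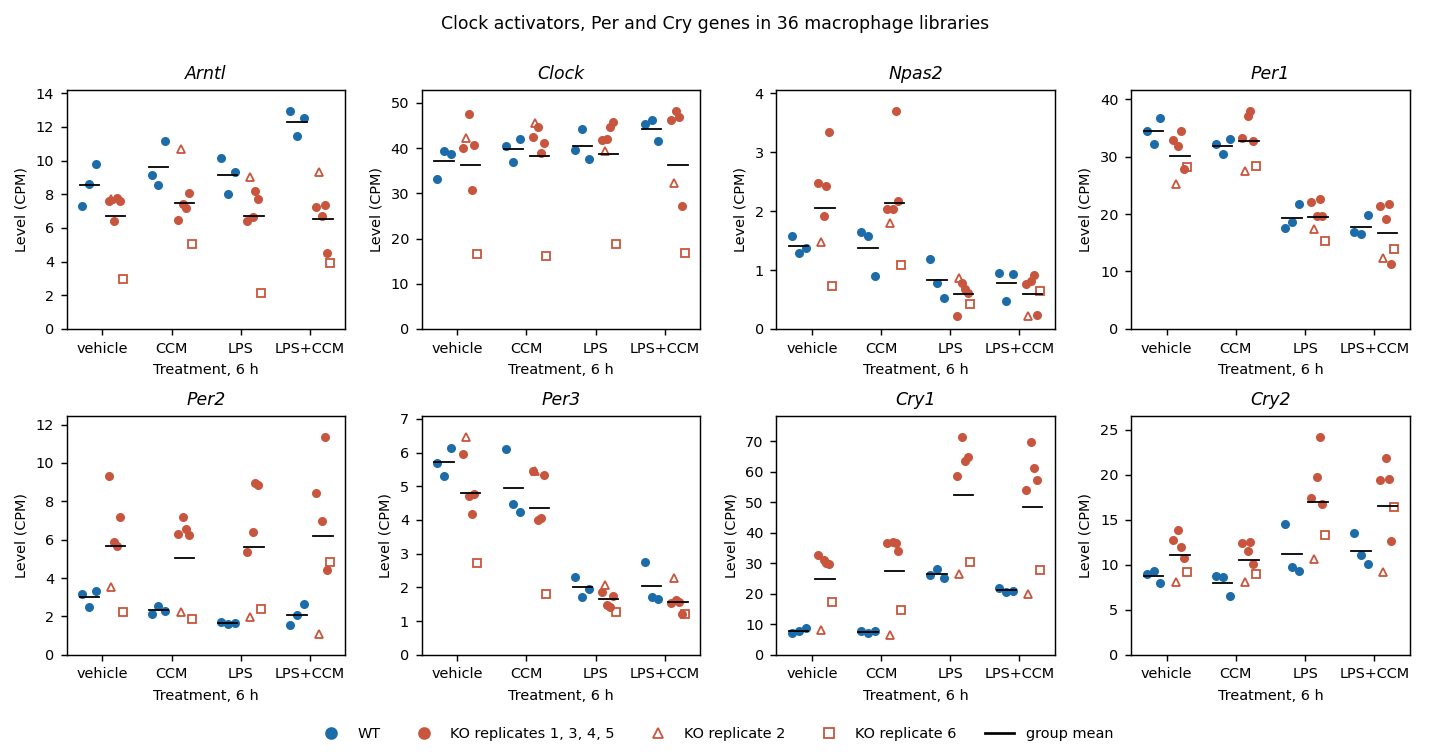
Level of each gene (CPM, linear axis from 0) in each of the 36 libraries, by treatment, with WT in blue, KO in red and the group mean as a black line; open triangles are the libraries labelled KO replicate 2 and open squares those of KO replicate 6. Cry1 and Cry2 stand higher and Per1, Per3 and Npas2 lower in the LPS columns, and the triangles of Cry1 and Per2 lie near the WT points.

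The level of a transcript can be compared between genes only per length, here as RPKM, computed from the CPM and the gene length listed beside the counts. That is 1 fixed length per gene, while the members have 2 to 6 transcripts in GENCODE M21. The ranks and shares below depend on it, and their SD does not cover this. In vehicle-treated WT macrophages Per1 was the most abundant member at 6.12 ± 0.398 RPKM (SD, n = 3), followed by Clock at 2.71 ± 0.246, Cry1 at 2.35 ± 0.235, Cry2 at 1.38 ± 0.112 and Arntl at 1.14 ± 0.166. Per3 (0.594 ± 0.0428), Per2 (0.511 ± 0.0785) and Npas2 (0.295 ± 0.0320) were the least abundant. The ranges of Clock and Cry1, of Cry2 and Arntl and of Per3 and Per2 overlapped, and the other neighbours did not overlap. Read library by library, Clock was above Cry1 and Per3 above Per2 in each of these WT libraries. Cry2 was above Arntl in all but replicate 3. In vehicle-treated KO macrophages Cry1 came first at 7.44 ± 2.94 RPKM (SD, n = 6), from 2.44 in replicate 2 to 9.76, and Per1 second at 5.34 ± 0.619. Of the CLOCK-type partners of BMAL1, Npas2 made up 9.91% ± 1.83 of the summed RPKM of Clock and Npas2 in vehicle-treated WT libraries and 13.9% ± 4.29 in KO. Per1 made up 84.7% ± 0.640 of the summed RPKM of the Per genes in WT and 78.9% ± 5.60 in KO. Clock and Per1 thus supply most of the transcript of their groups in both genotypes.

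**Figure D2:**
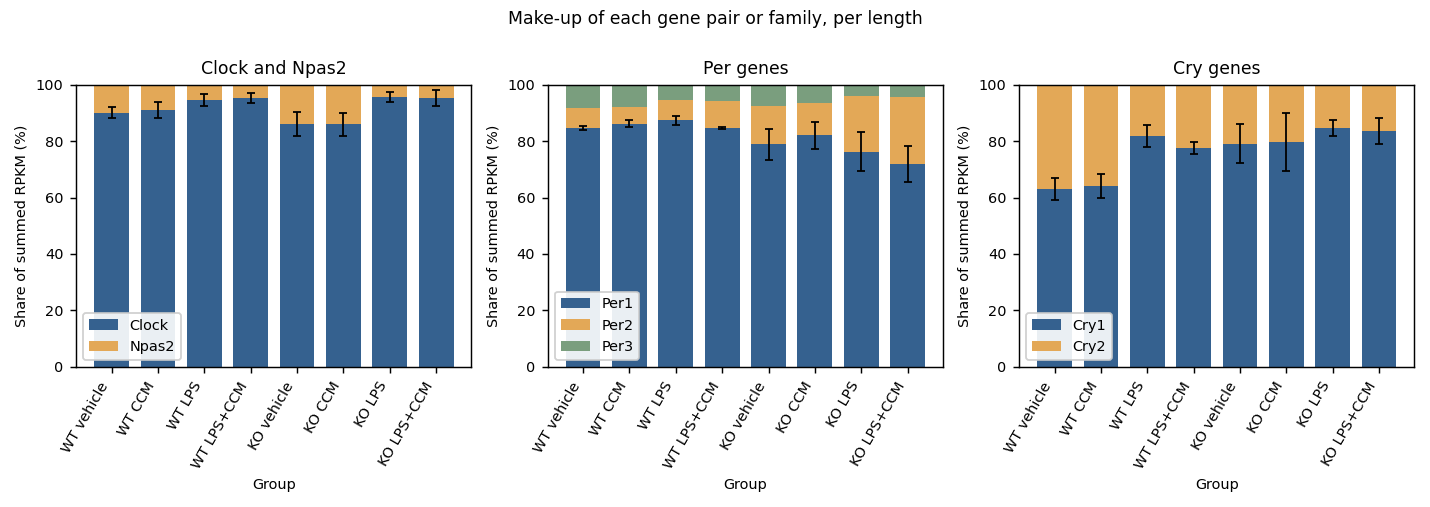
Share of each gene in the summed RPKM of its pair or family (%, from 0 to 100), as means over the 3 WT or 6 KO libraries of each group; error bars are the SD of the lowest segment. Cry1 takes 62.9% of the Cry sum in WT vehicle and 81.9% in WT LPS, and the Npas2 segment is thinner in every LPS group.

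Arntl, the gene deleted in KO, was read first. The count covers the whole gene, exons that Cre leaves in place included, and so is no direct measure of the deletion. Vehicle-treated WT libraries had 7.28, 8.61 and 9.77 CPM of Arntl, and KO libraries had 2.98 to 7.75 with a median of 7.598. The ranges overlap. As the mean of the 4 libraries of a replicate, Arntl was 9.87, 9.16 and 10.7 CPM in WT replicates 1 to 3, and 6.91, 9.20, 6.81, 7.62, 6.97 and 3.52 in KO replicates 1 to 6. The libraries labelled KO replicate 2 (7.74 to 10.7 CPM) lie within the WT range of 7.28 to 12.9, those of KO replicate 6 are the lowest, and the other 16 KO libraries have 4.53 to 8.19. Over all treatments, with the 4 libraries of a replicate summed, the log2 fold change of KO against WT was -0.49 (SE 0.224, edgeR adjusted p = 0.943). It was -0.58 without replicate 2 and -0.37 without replicate 6, with adjusted p of 0.918 and 1.

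Cry1, the stronger repressor of the CRY pair, was higher in 4 of the 6 KO replicates than in any WT library. Vehicle-treated WT libraries had 7.13, 7.77 and 8.69 CPM, and KO libraries had 8.15 to 32.6 with a median of 29.9. The lowest KO value is that of replicate 2, inside the WT range, the next is 17.5 in replicate 6, and the other 4 lie at 29.7 to 32.6. Replicate means over the 4 treatments were 15.8, 15.9 and 15.6 CPM in WT and 45.5, 15.2, 52.3, 47.9, 46.5 and 22.6 in KO replicates 1 to 6. The 16 libraries of KO replicates 1, 3, 4 and 5 had 29.7 to 71.3 CPM, all above the highest WT library at 28.1. The log2 fold change over all treatments was 1.30 (SE 0.371, edgeR adjusted p = 0.943), 1.47 without replicate 2 (SE 0.234) and 1.41 without replicate 6 (SE 0.329), each with an adjusted p of at least 0.918.

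Per2, whose protein is a scaffold of the repressor complex, had a similar pattern of replicates. Vehicle-treated WT libraries had 3.16, 2.47 and 3.35 CPM and KO libraries 2.25 to 9.32 with a median of 5.79. Replicates 2 (3.56 CPM) and 6 (2.25 CPM) are the lowest of the KO libraries. Replicate 6 lies below WT, replicate 2 just above the highest WT library, and the other 4 further above it. Replicate means were 2.13, 2.18 and 2.50 CPM in WT and 7.34, 2.22, 6.62, 8.13, 6.67 and 2.84 in KO replicates 1 to 6. Over all treatments the log2 fold change was 1.29 (SE 0.400, edgeR adjusted p = 0.943), 1.45 without replicate 2 and 1.41 without replicate 6. Cry2, the other CRY repressor, had replicate means of 11.5, 9.68 and 8.48 CPM in WT and 15.5, 8.997, 16.7, 17.03, 12.6 and 11.95 in KO. Its replicate 2 again lies in the WT range, the other 5 above it, and its log2 fold change was 0.49 (SE 0.199, edgeR adjusted p = 0.943), 0.58 without replicate 2 and 0.51 without replicate 6.

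No member was called between the genotypes by edgeR, where called means an adjusted p of at most 0.05 over all genes tested. Over all treatments 0 of 17724 genes were called (0%), with vehicle 0 of 14385 (0%) and with LPS 0 of 13794 (0%). At an unadjusted p under 0.05 there were 3 members over all treatments (Per2, Cry1 and Cry2), 2 with vehicle and 3 with LPS, and DESeq2 called 0 members in each. In a fit of the 36 libraries without summing, which treats the 4 libraries of a replicate as separate samples, Cry1 (1.41) and Per2 (1.32) were called among 9 genes. With LPS the CPM ranges of WT and KO overlapped for 7 of the 8 members and were apart for Per2, against 1.2% of all genes, and with vehicle they were apart for 0 members, against 0.952%. Clock (-0.10, SE 0.245), Npas2 (0.33, SE 0.289), Per1 (-0.07, SE 0.137) and Per3 (-0.25, SE 0.241) each had an edgeR adjusted p of 0.943 over all treatments, as log2 fold changes. Without replicate 2 these values were -0.12, 0.39, -0.02 and -0.34, and without replicate 6, where Clock turned, they were 0.04, 0.46, -0.03 and -0.13. Clock was at 16.1 to 18.7 CPM in the libraries of KO replicate 6 and at 27.2 or more in all other libraries.

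**Figure D3:**
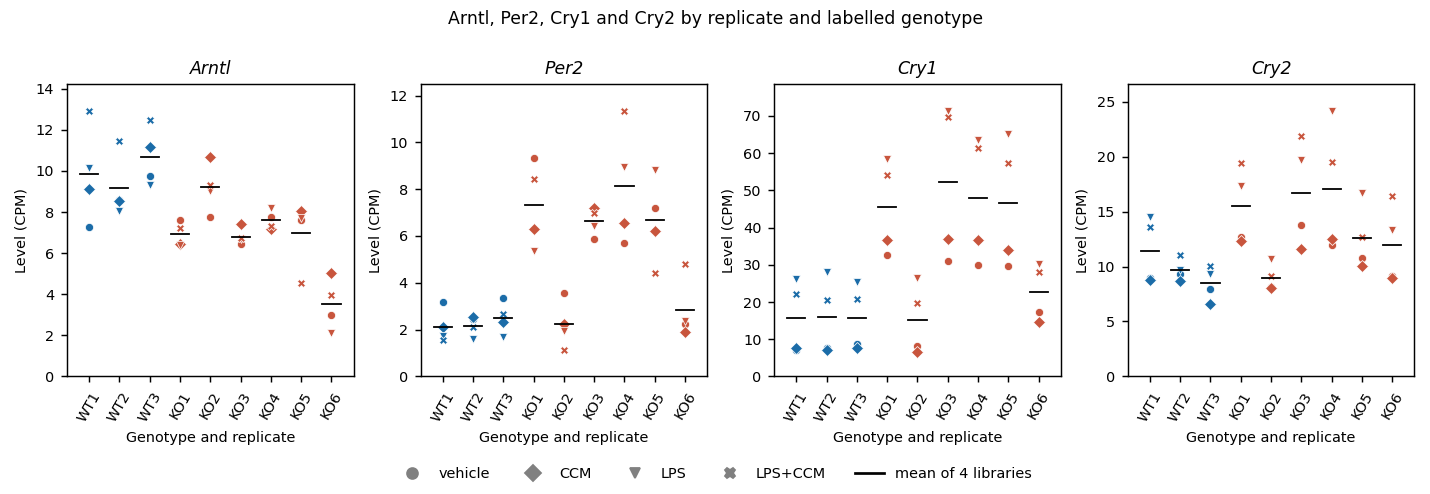
Level (CPM, linear axis from 0) of Arntl, Per2, Cry1 and Cry2 in the 4 libraries of each replicate, with WT in blue and KO in red, a symbol for each treatment and the mean as a black line. KO replicate 2 lies near the WT height for all 4 genes, and the means of Cry1 are 45.5 to 52.3 CPM in KO replicates 1, 3, 4 and 5 against 15.6 to 15.9 in WT.

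LPS changed the repressor genes in opposite directions in WT macrophages, with Cry1 up and the Per genes down, and left the main activators Arntl and Clock without a call. Cry1 had 7.13, 7.77 and 8.69 CPM with vehicle and 26.3, 28.1 and 25.3 with LPS, which is the largest change of a member. Every LPS library is far above every vehicle library. The log2 fold change was 1.76 (SE 0.104, edgeR adjusted p = 2.08e-07), a 3.38-fold rise. Per1, the most abundant Per gene, had 34.4, 32.3 and 36.8 CPM with vehicle and 17.7, 18.6 and 21.8 with LPS, a log2 fold change of -0.83 (SE 0.0946, adjusted p = 3.21e-05). Per3, the Per gene that the loop needs least, had 5.70, 5.30 and 6.12 CPM with vehicle and 2.30, 1.73 and 1.97 with LPS, a log2 fold change of -1.52 (SE 0.185, adjusted p = 4.94e-05). Neither gene had overlapping groups. Per2 had 3.16, 2.47 and 3.35 CPM with vehicle and 1.71, 1.60 and 1.69 with LPS, also apart, with a log2 fold change of -0.85 (SE 0.219, adjusted p = 0.00681). It was not called in a fit of all 36 libraries (adjusted p = 0.296).

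The Per genes and Cry1 make 4 of 8 members called by edgeR in WT, where 63% of all genes tested were called, so the share of members is not above the background. The CPM ranges were apart for 6 of 8 members, against 68.9% of all genes. The median log2 fold change of the members was -0.35 and that of all 14501 genes tested -0.05. Npas2 had 1.58, 1.28 and 1.37 CPM with vehicle and 1.18, 0.777 and 0.522 with LPS, on 13 to 46 read pairs a library. Its log2 fold change of -0.80 (SE 0.337, adjusted p = 0.0621) did not pass the test, though it did with total counts or without WT LPS replicate 1 (-1.21 and -1.11). Cry2 had 8.93, 9.32 and 7.94 CPM with vehicle and 14.5, 9.71 and 9.35 with LPS, higher in 3 of 3 replicate pairs, with a log2 fold change of 0.36 (SE 0.174, adjusted p = 0.1). Arntl (0.10, SE 0.152) and Clock (0.13, SE 0.0894) had adjusted p of 0.593 and 0.224. The direction of Clock depended on the scaling, since with total counts in place of TMM it was -0.28 (adjusted p = 0.022). That scaling moved the median of all genes from -0.05 to -0.47, and relative to it Clock stood higher in both.

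In KO macrophages the same treatment lowered Per1, Per3 and Npas2 and raised Cry1 and Cry2. Per3 had 2.73 to 6.45 CPM with vehicle (median 4.74) and 1.28 to 2.07 with LPS (median 1.61), on 15 to 145 read pairs. The groups do not overlap, and the log2 fold change was -1.55 (SE 0.211, edgeR adjusted p = 3.97e-05). Per1 fell from 25.3 to 34.4 CPM (median 30.0) to 15.3 to 22.6 (median 19.6), again without overlap, a log2 fold change of -0.64 (SE 0.117, adjusted p = 0.000459). Npas2 had 0.724 to 3.34 CPM with vehicle (median 2.17) and 0.221 to 0.863 with LPS (median 0.646), lower in 6 of 6 replicate pairs. Its log2 fold change of -1.80 (SE 0.371, adjusted p = 0.00124) rests on 4 to 15 read pairs in the LPS libraries, and the ranges overlap through replicate 6. Without replicate 2 the value was -2.01 and without replicate 6 it was -1.90. Per2 had 2.25 to 9.32 CPM with vehicle and 1.96 to 8.93 with LPS, a log2 fold change of -0.02 (SE 0.407, adjusted p = 0.978), higher in 4 and lower in 2 of 6 pairs.

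Cry1 in KO had 8.15 to 32.6 CPM with vehicle and 26.4 to 71.3 with LPS (medians 29.9 and 61.0). It rose in 6 of 6 pairs, by 0.80 to 1.69 on the log2 scale, and its log2 fold change was 1.06 (SE 0.339, edgeR adjusted p = 0.0196). The largest rise was that of replicate 2, from 8.15 to 26.4 CPM, and WT libraries rose by 1.53 to 1.87. Without replicate 2 the log2 fold change was 1.02 (SE 0.231, adjusted p = 0.00435), and without replicate 6 it was 1.09. Without replicate 3, 4 or 5 the adjusted p was 0.0567, 0.0568 and 0.0561, in fits without a replicate block. Across genes all same-numbered pairs deviated together here (correlations of 0.3 to 0.83), and these fits count the spread between replicates as error. Over its 12 alternatives, the block and DESeq2 among them, the adjusted p of Cry1 ran from 1.14e-07 to 0.136. Cry2 had 8.10 to 13.8 CPM with vehicle and 10.7 to 24.2 with LPS, higher in 6 of 6 pairs, a log2 fold change of 0.60 (SE 0.197, adjusted p = 0.023). That call was lost without replicate 4 (adjusted p = 0.0832) or 5 (0.0686), again without a block, and with total counts both Cry calls were lost (log2 fold changes of 0.68 and 0.22). Over the same alternatives the adjusted p of Cry2 ran from 9.23e-05 to 0.438. In all 5 of 8 members were called, against 47.1% of all genes tested, and 2 of 8 had ranges apart, against 30.7% of all genes. These 5 members were also the ones called without KO replicate 2, without KO replicate 6 and in the paired fit with a replicate block, which called 71.6% of all genes.

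**Figure D4:**
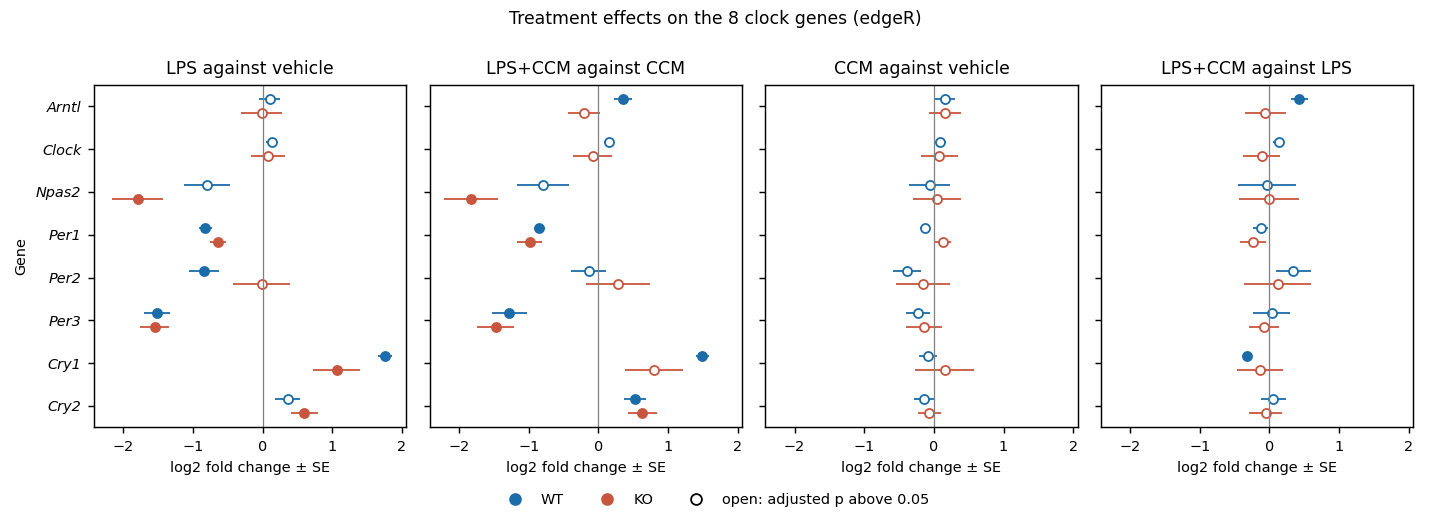
Log2 fold changes (horizontal axis, with SE) of the 8 genes in 4 treatment comparisons, WT in blue and KO in red; filled points have an edgeR adjusted p of at most 0.05. Under LPS Per1 and Per3 lie left of 0 and Cry1 right of it in both genotypes, and the CCM panels hold filled points for Arntl and Cry1 in WT under LPS alone.

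The LPS response was not shown to differ between the genotypes. The interaction of genotype and LPS was called for 0 of 15093 genes (0%) and so for 0 members, with 0 members at an unadjusted p under 0.05 and 0 called by DESeq2. The difference of the LPS effects, KO less WT, was -0.67 for Cry1 (SE 0.510), 0.84 for Per2 (SE 0.636) and -0.99 for Npas2 (SE 0.579), each with an edgeR adjusted p of 1. For Per3 it was -0.02 (SE 0.309). In the fit with a replicate block within each genotype the errors were smaller, with -0.63 for Cry1 (SE 0.158), 0.79 for Per2 (SE 0.342) and -0.94 for Npas2 (SE 0.514). That fit too called 0 genes (0%) and gave each an edgeR adjusted p of 1, with unadjusted p of 0.00108 for Cry1 and 0.0346 for Per2, the members under 0.05. The LPS pairs deviated together in KO and not in all of WT, so a difference between the genotypes was neither shown nor bounded closely.

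With CCM present, LPS again lowered Per1 and Per3 and raised Cry1 in WT macrophages. Cry1 went from 7.71, 7.12 and 7.74 CPM with CCM to 22.0, 20.7 and 20.8 with LPS and CCM, a log2 fold change of 1.49 (SE 0.093, edgeR adjusted p = 1.76e-07). Per1 went from 32.1, 30.5 and 33.0 CPM to 16.8, 16.6 and 19.8 (-0.85, SE 0.0841, adjusted p = 7.67e-06). Per3 had 6.10, 4.48 and 4.24 CPM with CCM and 2.74, 1.73 and 1.67 with both (-1.28, SE 0.251, adjusted p = 0.00116). Cry2 (0.53, adjusted p = 0.0127) and Arntl (0.35, adjusted p = 0.0344) were called as well, 5 of 8 members against 61.5% of all genes, and 5 of 8 had ranges apart, against 67.3%. Arntl was not called by DESeq2 (adjusted p = 0.0532) or without any 1 of 4 of the 6 libraries. Per2, called without CCM, had 2.11, 2.54 and 2.31 CPM with CCM and 1.55, 2.09 and 2.66 with both, which overlap (-0.14, adjusted p = 0.664). In KO macrophages Npas2 (-1.83), Per3 (-1.47) and Per1 (-0.99) were called lower and Cry2 (0.63, adjusted p = 0.0272) higher, 4 of 8 against 38.2% of all genes, and 2 of 8 had ranges apart, against 25.4%. The call of Cry2 was lost without KO replicate 1, 3 or 4 (adjusted p of 0.0754, 0.091 and 0.0736). Cry1 had 6.45 to 37.0 CPM with CCM and 19.8 to 69.7 with both, higher in 6 of 6 pairs but not called (0.80, SE 0.413, adjusted p = 0.148). The fit with a replicate block called it (0.90, SE 0.133, adjusted p = 0.000177). Across all genes tested, not all of those pairs deviated together (same-number correlations of -0.141 to 0.787). For Cry1 itself, replicates 2 and 6 were lowest in both groups, at 6.45 and 14.75 CPM with CCM and 19.8 and 27.96 with both. The fit without a block counts that spread between replicates as error.

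CCM by itself, 6 h on unstimulated macrophages, changed none of the 8 genes by the test. In WT 0 of 8 members were called by edgeR or DESeq2 and 0 had an unadjusted p under 0.05, against 0.057% of all genes called. Their log2 fold changes ran from -0.39 to 0.15, with standard errors of 0.0727 to 0.292. The lowest was Per2, with 2.11, 2.54 and 2.31 CPM against 3.16, 2.47 and 3.35 with vehicle (-0.39, SE 0.207, adjusted p = 0.575). In KO 0 of 8 members were called by edgeR or DESeq2, against 0% of all genes (3.11% in the paired fit, and again 0 members), with log2 fold changes of -0.15 to 0.16 and standard errors of 0.115 to 0.429. Ranges were apart for 0 members in either genotype, against 16.1% of all genes in WT and 0.42% in KO. Per1 was lower with CCM in 3 of 3 WT pairs, by 0.08 to 0.15 on the log2 scale, and higher in 6 of 6 KO pairs, by 0.01 to 0.23. The difference between these effects was 0.24 (SE 0.170, edgeR adjusted p = 1) and did not pass the test. With the replicate block it was 0.25 (SE 0.0818), again with an adjusted p of 1 (unadjusted p = 0.00903).

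Under LPS, CCM moved 2 members in WT macrophages, Arntl up and Cry1 down. Arntl, which encodes the protein that CCM binds, had 10.2, 8.03 and 9.31 CPM with LPS and 12.9, 11.5 and 12.5 with LPS and CCM, apart from each other. Its log2 fold change was 0.43 (SE 0.120, edgeR adjusted p = 0.0441), higher in 3 of 3 pairs. Cry1 had 26.3, 28.1 and 25.3 CPM with LPS and 22.0, 20.7 and 20.8 with both, also apart, a log2 fold change of -0.33 (SE 0.0702, adjusted p = 0.0134), lower in 3 of 3 pairs. Its level with both agents lay nearer to LPS than to vehicle (7.13 to 8.69 CPM). These 2 of 8 calls stand against 11.9% of all genes called (23.7% in the paired fit, which called the same 2 members), and the 2 of 8 with ranges apart against 30.6% of all genes. Arntl was not called by DESeq2 (adjusted p = 0.054) and kept its call in the absence of 1 library alone, WT LPS replicate 1. Neither gene was called in a fit of all 36 libraries (adjusted p = 1 for both) or without replicate 2 of either group. Without WT LPS replicate 2 the log2 fold change of Arntl was 0.34 and that of Cry1 -0.28. The fits that leave out a library carry no block, though all pairs of this comparison deviated together across genes (correlations of 0.151 to 0.36).

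In LPS-treated KO macrophages 0 of 8 members were called by edgeR or DESeq2 with CCM, 0 had an unadjusted p under 0.05, and 0.112% of all genes were called. Cry1 had 26.4 to 71.3 CPM with LPS and 19.8 to 69.7 with both. It was lower with CCM in 6 of 6 pairs, by 0.03 to 0.41 on the log2 scale, and its log2 fold change was -0.13 (SE 0.327, edgeR adjusted p = 0.913). Per1 was also lower in 6 of 6 pairs (-0.24, SE 0.185, adjusted p = 0.831) and in 3 of 3 WT pairs (-0.13, SE 0.104, adjusted p = 0.495). Arntl was higher in 4 and lower in 2 of 6 KO pairs (-0.06, SE 0.296). The difference between the CCM effects of the genotypes under LPS, KO less WT, was -0.47 for Arntl (SE 0.435) and 0.21 for Cry1 (SE 0.494), with 0 of 14546 genes called (0%) and 0 members at an unadjusted p under 0.05. The interaction of LPS and CCM called 0 of 8 members in WT, against 2.09% of all genes, and 0 of 8 in KO, against 0.00685%. In WT Per2 had the largest interaction term, 0.71 (SE 0.315, edgeR adjusted p = 0.322), and was the 1 member with an unadjusted p under 0.05.

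Genes that feed on or into the core loop were read from a list of 21 other clock genes. With LPS 18 were tested in WT and 13 were called, 8 lower and 5 higher, against 63% of all genes. The largest changes were those of Dbp, a D-box activator and classic clock output (-2.15, SE 0.267, edgeR adjusted p = 5.9e-05), Usp2, a ubiquitin protease (-2.11, SE 0.167) and Tef, a further D-box activator (-1.77, SE 0.0716). In KO 11 of 16 tested were called, 8 lower and 3 higher, against 47.1% of all genes, led by Dbp (-2.16, SE 0.260), Usp2 (-1.77, SE 0.185) and Tef (-1.75, SE 0.102). With CCM present LPS called 9 lower and 1 higher of 18 in WT, against 61.5% of all genes, led by Usp2 (-2.05), Dbp (-1.91) and Tef (-1.65), and 8 lower and 0 higher of 19 in KO, against 38.2%, led by Dbp (-2.07), Usp2 (-1.72) and Bhlhe40 (-1.56), which encodes a repressor that binds E-boxes. Without CCM the median log2 fold change of the tested list was -0.35 in WT and -0.40 in KO, against -0.05 over all genes in both. CCM alone changed 0 of the 19 tested in WT, against 0.057% of all genes, and 0 of 18 in KO, against 0%. Under LPS it lowered 3 of 16 in WT, against 11.9% of all genes called, Timeless (-0.90, SE 0.121), Btrc (-0.31) and Fbxw11 (-0.21), and 0 of 16 in KO, against 0.112%. Timeless encodes a protein of the replication fork, and Btrc and Fbxw11 encode F-box proteins that mark PER for destruction. No listed gene was called between the genotypes or in an interaction.

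**Figure D5:**
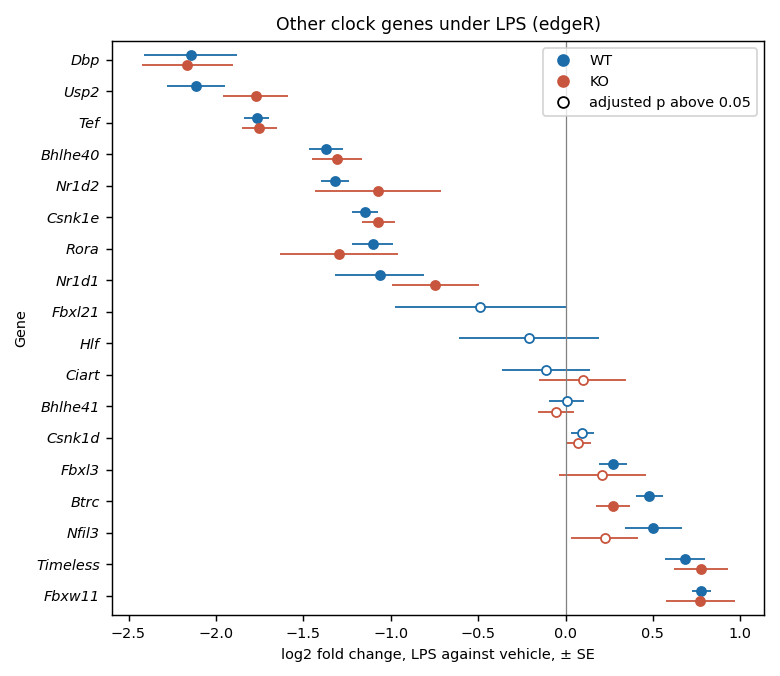
Log2 fold change of LPS against vehicle (horizontal axis, with SE) for the 18 listed clock genes tested in WT (blue) and, where tested, in KO (red); filled points have an edgeR adjusted p of at most 0.05. Dbp, Usp2 and Tef lie at -1.75 or lower in both genotypes, and Timeless and Fbxw11 lie highest.

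Among replicates, Per2, Cry1 and Cry2 varied together. Over the 32 libraries without KO replicate 6, the deviations from the group mean correlated at r = 0.805 for Per2 and Cry1, 0.762 for Per2 and Cry2 and 0.716 for Cry1 and Cry2, and at -0.564 for Arntl and Cry1. Per1 also varied with Per2 (0.727), Cry2 (0.634) and Cry1 (0.565). Per3 went the other way, at -0.51 with Per2, -0.496 with Cry1 and -0.266 with Cry2. These libraries share replicates across treatments, and the KO replicate 2 libraries are among them. Within the 12 WT libraries the first 3 were -0.23, -0.415 and -0.137 and that of Arntl and Cry1 was 0.517, so that part is not seen there. Per1 was at 0.522 with Per2 in WT, 0.0225 with Cry1 and -0.713 with Cry2. Per3 went against Per2 in WT too (-0.537), but was at 0.258 with Cry1 and 0.671 with Cry2. Of the 13125 protein-coding genes compared over all 36 libraries, Cry2 (r = 0.854) was most like Cry1, and Cry1 was most like Cry2. The genes most like Per3 were Parp1 (0.957), Dusp3 (0.956) and Aldh9a1 (0.953), and those most like Per1 were Chd3 (0.942), Tns1 (0.937) and Man2a2 (0.932). Clock was most like Bicd2 (0.979), Wdfy3 (0.976) and Kmt2e (0.975), a likeness in which the 4 low libraries of KO replicate 6 take part. For Arntl they were Cbll1 (0.841), Unkl (0.840) and Zfp109 (0.836), for Npas2 Dnmbp (0.849), Trpm2 (0.848) and Cd28 (0.847), and for Per2 Itgb2l (0.663), Cry2 (0.639) and Cry1 (0.624). In the deviations over the 32 libraries, Lyz1, which encodes the other mouse lysozyme, came first for both Cry1 (0.956) and Per2 (0.806).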

How the data were processed

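RNA-seq of 36 BMDM libraries was analysed. Per the labels and the study's methods, the authors cleaned the reads with fastp, mapped them to mm10 with HISAT2 2.0.5 and counted them on genes with featureCounts 1.5.0-p3. Reads were paired-end and a count is called a read pair here, though the study's methods speak only of read numbers. The deposited values are these raw counts, with no normalization, and a column of gene length. The annotation release is not given in the sources used here. All 8 members have the same coordinates in GENCODE M21. Taken over the better covered genes together, libraries of a group differed by more than counting noise in all 72 pairs (lowest chi-square over its degrees of freedom 4.34). Replicate spread thus adds to counting noise in those genes. For members with few read pairs, such as Npas2 (4 to 15 in KO LPS libraries), counting noise limits precision as well. The study counts its replicates as mice, 3 WT and 6 KO, but does not say that libraries with the same number come from 1 mouse.

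From the counts, each comparison used the libraries of its groups alone, in edgeR 4.0.16 (R 4.3.3) with filterByExpr, TMM and the two-sided quasi-likelihood test without a block, adjusted by Benjamini-Hochberg over all genes tested, with a threshold of 0.05. Genotypes over all treatments were compared on counts summed per replicate. SE is the log2 fold change divided by the root of the F statistic. CPM and RPKM use TMM factors over 36 libraries, and log2 levels a prior count of 2. The fits were tested on simulated data. Alternatives were DESeq2 1.42.0, RLE size factors, total counts, no filter beyond 1 count, a replicate block, a fit of all 36 libraries and leaving out each library or replicate.

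Same-numbered libraries were checked for pairing through correlated departures from the mean of each group. All pairs were over 0.1 for LPS in KO (0.3 to 0.83), CCM in KO (0.337 to 0.839) and CCM under LPS in WT (0.151 to 0.36), and not in the other comparisons.

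The members, the lists of other clock genes and markers, and the tests were chosen with earlier results of these data known. The rule named all 8 members, up to 3 called genes of the clock list with the largest change per comparison, and the 3 protein-coding genes most like each member. Lyz2, Lyz1 as the first of those lists, and the replicates that stand apart were singled out after their values were seen. Promoters are from RefSeq on GRCm38.p6.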

Additional observations from a re-analysis of the deposited data

Results flagged for a closer look

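In 3 of the 32 sets of 6 KO libraries of 1 member under 1 treatment, a single library stood far from the others, with a gap to the nearest one above Dixon's critical value for 6 samples. Chance flags about 1 set in 20. All 3 were the lowest value and came from the libraries labelled KO replicate 6. Arntl with vehicle was at 2.97 CPM, and the other 5 KO libraries were at 6.44 to 7.75. Clock was at 16.1 CPM with CCM and at 18.7 CPM with LPS. The same replicate had the highest neutrophil marker sums (891 to 975 CPM), on a list led by S100a8 and S100a9 in which Ly6g was at most 0.58 CPM. The part of that in these values was not tested.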

How the results depend on the processing

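Counts of members called moved by more than 1.5 times in these cases. For LPS in KO the count was 5, and 3 with total counts. For CCM under LPS in WT it was 2, 1 with DESeq2 and 0 with all 36 libraries in 1 fit. For LPS with CCM present in WT it was 5 and 3 with all 36 libraries. For KO against WT over all treatments it was 0 and 2 with the 36 libraries unsummed. Leaving out 1 library or replicate gave 3 to 5 members for LPS in KO, 0 to 2 for LPS+CCM against LPS in WT, and 3 to 6 for LPS with CCM present in WT. The lowest came without KO replicate 4 or 5, without replicate 2 of WT LPS or of WT LPS+CCM, and without WT LPS+CCM replicate 1. The one reversal that involved a call was Clock for LPS in WT, which was 0.13 and -0.28 with total counts. Values with no call changed sign in further cases, such as Arntl for LPS in WT, 0.10 and down to -0.31 over its alternatives. Under LPS the median over all genes moved with total counts, to -0.47 in WT and -0.44 in KO, against -0.05 with TMM in both, and the share of calls that were higher went from 48.6% to 24% in WT and from 47.6% to 24.2% in KO.
With the replicate block, the paired fit of LPS with CCM present in KO called Cry1 at 0.90 (adjusted p = 0.000177). Across genes not all pairs of that comparison deviated together, while Cry1 itself was lowest in replicates 2 and 6 of both groups. Over all its alternatives the adjusted p ran from 0.000177 to 0.452. The block changed no other call of a member. Of the 1648 values of single members under the alternatives, 1607 stayed on their side of the threshold, 32 lost the call and 8 gained it. The other 1, Clock for LPS in WT with total counts, gained a call with its sign reversed. Values called in both fits kept their direction, while values called in neither could change sign. The counts of Npas2, at most 78 read pairs, limit what can be seen of it.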

Other observations

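The libraries labelled KO replicate 2 lay within the pooled WT range of Lyz2, and close to WT in Cry1. For Cry1 they had 8.15 CPM with vehicle (WT 7.13 to 8.69), 6.45 with CCM (WT 7.12 to 7.74), 26.4 with LPS (WT 25.3 to 28.1) and 19.8 with LPS and CCM (WT 20.7 to 22.0). Arntl was 9.32 CPM with LPS and CCM, under the WT range of 11.5 to 12.9, and within it with the other treatments. Per2 was within the WT range with CCM (2.26 CPM), above it with vehicle and LPS, and below it with both agents (1.11 CPM against 1.55 to 2.66). Cry2 was below it with both agents (9.165 CPM against 10.05 to 13.57) and within it otherwise. Their macrophage marker sums, of which Lyz2 is the largest part, were 17000 to 20100 CPM. WT libraries had 15900 to 19400 and the other KO libraries 11500 to 14600. Whether these libraries carry the deletion was not tested, since gene counts do not resolve the deleted segment.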
